A study of Homo sapiens with 6 samples.

Results

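The genes described here are 42 genes of the cell division cycle, listed by name and measured in H295R/TR SF-1 cells. For 41 of them the array annotation pairs the symbol with a probe set, and each was read from its brightest probe set, as were all 19775 genes. CDKN2C was the member without a probe set under its symbol. H295R cells come from a human adrenocortical carcinoma. H295R/TR SF-1 is a subclone of them in which doxycycline (Dox) induces SF-1, a nuclear receptor encoded by NR5A1, on top of the SF-1 that the cells already make. Of the 6 arrays, 3 were labelled as cells in basal conditions for 72 h and 3 as cells given Dox at 1 µg/mL for 72 h, and all cells carried the inducible construct. Arrays are called basal 1 to 3 and Dox 1 to 3 after their labels, counted in the order deposited, since the labels carry no such numbers. Values are log2 signals, and a difference of 1 is 2-fold.

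The cycle is driven by cyclin-dependent kinases (CDKs) and their cyclins. D-type cyclins with CDK4 or CDK6 phosphorylate the retinoblastoma protein RB1, which frees E2F factors to switch on cyclin E and the genes of DNA replication. CDK inhibitors of the p21 and p16 families hold this step back. Cyclin A with CDK2 then carries the cell through S phase, and cyclin B with CDK1 starts mitosis. The anaphase-promoting complex with CDC20 ends mitosis once the spindle checkpoint allows. SF-1 is a factor whose dosage is linked to the growth of adrenocortical cells, so the question put to these genes is whether their transcripts differed between basal and Dox cultures.

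Several facts about the arrays bear on every value. Basal 1 and Dox 1 were nearly identical, with an SD of 0.134 for their difference over 54613 probe sets, and so were basal 3 and Dox 2 (SD 0.149). In both pairs 0 probe sets differed by over 2-fold, whereas 525 to 2264 did in every other pair of arrays. The values of basal 2 and Dox 3 were less widely spread (SD over probe sets 2.36 and 2.37) than those of the 4 others (2.43 to 2.44), and these arrays are called the narrow set. NR5A1 was at 5.84, 5.92 and 6.30 in basal 1 to 3 and at 5.55, 6.21 and 6.41 in Dox 1 to 3, so the induced gene did not separate the labels, and basal and Dox name only what the arrays were labelled. Whether its probe set reads the introduced SF-1 sequence is not given in the sources used here. The cells carried transcripts of the adrenal cortex: of 8 listed adrenocortical markers, 5 lay above the median signal of every array. The steroidogenic genes STAR, CYP11A1 and FDX1 lay above 10 in all arrays. The other 3 of the 8 markers, NR5A1 among them, lay below the median in at least 1 array. Of 11 measured stromal, endothelial and blood markers, 6 lay below the median signal of every array (5.563 to 5.596) and 3 above it. The log2 of the summed signal of all 11 was 9.45 to 9.94 in basal and 9.43 to 9.93 in Dox. Of 5 measured adrenal medulla markers, 3 lay above the median of every array, so this count did not set cortex apart from medulla.

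The genes were compared first over all 6 arrays by label. They were then compared in 4 arrays, Dox 2 and Dox 3 against basal 1 and basal 2, with the narrow set against the other 2 arrays as a block. That second comparison leaves out 1 array of each nearly identical pair, basal 3 and Dox 1, and was chosen from these data, so its p-values are not independent evidence. It takes the labels of those 4 arrays as given. The treatment labels of basal 1 and Dox 1 read control and SF-1 overexpression, while those of the other arrays name basal culture or Dox. This difference in wording is called label style. Dox 2 minus basal 1 crosses label styles, so in that array set treatment and label style cannot be told apart.

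Over all 6 arrays the cell cycle genes were nearly level between the labels. With limma, 0 of 41 were called higher and 0 lower at an adjusted p under 0.05, as were 0% of all 19775 genes (lowest adjusted p = 1). At an unadjusted p under 0.05 there was 1 member, CDKN1C, against 0.551% of all genes. The median difference of the members, Dox minus basal, was 0.01, as against -0.000455 over all genes, and 38 of 41 differed by under 0.25. The range ran from -0.35 in CDKN1A to 0.39 in CDKN1C. In 1 member (2.44%) the labelled groups did not overlap, where 3.17% of all genes had groups apart (1.49% with Dox higher and 1.68% with Dox lower).

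PCNA, the sliding clamp of DNA polymerase, was the steadiest member. Its signal was 12.55, 12.49 and 12.54 in basal 1 to 3 and 12.58, 12.52 and 12.42 in Dox 1 to 3, with a difference of -0.02 ± 0.07 (SE). The groups overlapped and all 6 values lay within 0.16. MKI67, whose product Ki-67 marks cycling cells, was at 9.25, 8.37 and 9.21 in basal and at 9.14, 9.18 and 9.11 in Dox, a difference of 0.21 ± 0.25. Basal 2 was the lowest array here and in each of its 4 probe sets, at 7.83 to 8.63, and in 1 of them Dox 3 was low as well, at 8.24. TOP2A, the topoisomerase that untangles replicated DNA, was at 12.09, 11.65 and 12.06 in basal and 12.13, 12.14 and 11.73 in Dox, with basal 2 and Dox 3 the lowest arrays. A second bright probe set of TOP2A had these arrays highest, at 11.59 and 11.58 against 10.10 to 10.49 in the 4 others.

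**Figure D1:**
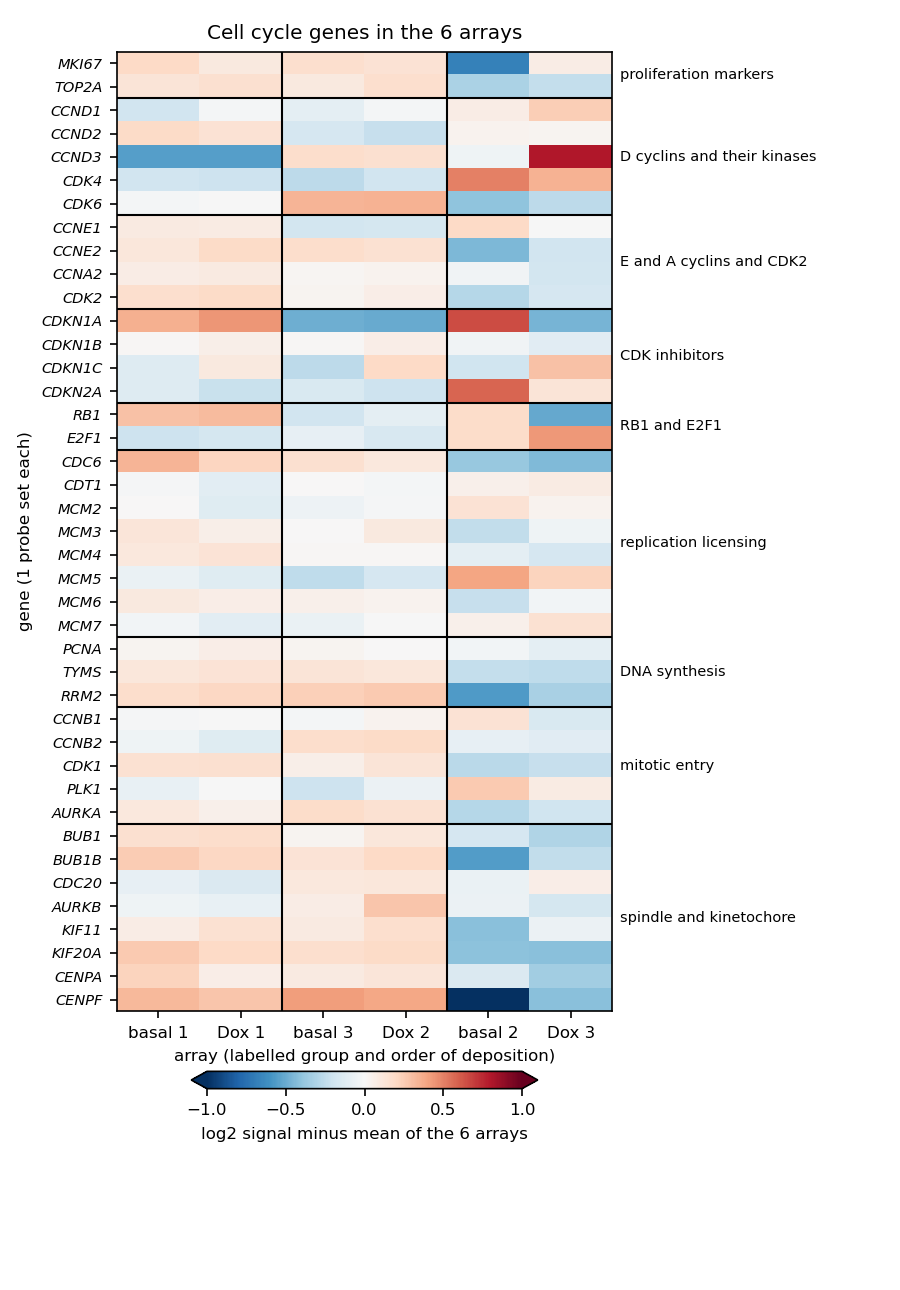
Log2 signal of 41 cell cycle genes (rows, by role) in the 6 arrays (columns), as the colour-coded difference from the mean of that gene over the 6 arrays; colours saturate at 1, and vertical lines part the nearly identical pairs and the narrow set. Basal 1 and Dox 1 have nearly the same colours, as do basal 3 and Dox 2, while basal 2 and Dox 3 differ from them in most genes.

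In the 4 arrays within array sets, 3 members passed the threshold: CCND3 was higher, and CDKN1A and RB1 were lower. The 3 calls were 7.32% of the 41 members, where 6.99% of all genes were called (3.42% higher and 3.58% lower), so the share of members called was near the background. All 3 calls ended without the block (adjusted p = 0.402 for CDKN1A, limma), with label style as the block, and with basal 1 and Dox 2 left out in place of basal 3 and Dox 1, where CDKN1A was at -0.10, CCND3 at 0.06 and RB1 at -0.09. In each of these settings 0% of all genes were called. With the mean of all probe sets of a gene, the calls of CCND3 and RB1 ended (adjusted p = 0.140 and 0.133, limma). The median difference of the members was 0.01, against -0.01 over all genes, and 33 of 41 differed by under 0.25. At an unadjusted p under 0.05 there were 8 members, against 17.3% of all genes. The SE of a member's difference had a median of 0.10, and limma drew on 1 residual degree of freedom per gene.

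CDKN1A encodes p21, an inhibitor of cyclin-dependent kinases that stops the cycle. Its signal was 10.58, 10.88 and 9.74 in basal 1 to 3 and 10.66, 9.72 and 9.75 in Dox 1 to 3. Basal 1, basal 2 and Dox 1 were high and the 3 others low, so the labelled groups overlapped. By label the difference was -0.35 ± 0.37 (exact permutation p = 0.6, n = 3 each, where 0.1 is the smallest possible). In the 4 arrays it was -0.99 ± 0.11, or 1.99-fold lower, with an adjusted p of 0.000145 by limma. Dox 2 minus basal 1 was -0.86 and Dox 3 minus basal 2 was -1.12. Within the 4 arrays outside the narrow set, labels as given, the difference was 0.04. CDKN1A has 1 probe set on the array, so no other probe set could be set beside it.

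The promoter of CDKN1A is shown because this gene had the largest difference of the members in the 4 arrays. The sequence is the 250 bases before the start in RefSeq (build GRCh38.p14), read 5′ to 3′. Capitals would mark E2F sites (the letters TTTGGCGC, the letters TTTCCCGC, the letters TTTCGCGC or the letters TTTGCCGC), the CHR element of cell cycle promoters (TTTGAA or its variant TTCGAA), the box named by its letters CCAAT, and SF-1 sites (CAAGGTCA) on either strand, and this window held none of them.
CDKN1A (chr6:36678464-36678713, + strand): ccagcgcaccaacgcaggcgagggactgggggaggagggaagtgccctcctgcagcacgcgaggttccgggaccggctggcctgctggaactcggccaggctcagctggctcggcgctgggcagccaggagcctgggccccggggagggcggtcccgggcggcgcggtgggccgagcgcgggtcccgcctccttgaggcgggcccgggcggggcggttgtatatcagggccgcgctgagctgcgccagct

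CCND3 encodes cyclin D3, which activates CDK4 and CDK6 in G1. It was at 9.88, 10.39 and 10.61 in basal 1 to 3 and at 9.89, 10.59 and 11.23 in Dox 1 to 3. Basal 1 and Dox 1 were the lowest arrays and Dox 3 the highest, and the groups overlapped. The difference was 0.28 ± 0.36 by label (exact permutation p = 0.6, n = 3 each) and 0.78 ± 0.10 in the 4 arrays, or 1.72-fold higher (adjusted p = 0.000402, limma). Dox 2 minus basal 1 was 0.71 and Dox 3 minus basal 2 was 0.84, while the arrays outside the narrow set, taken by label, differed by -0.01. Its other probe set lay below the array medians, at 4.35 to 5.02, and differed by -0.20.

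The D cyclins did not move as a family. CCND2 was at 10.56, 10.40 and 10.20 in basal and 10.51, 10.13 and 10.39 in Dox. In the 4 arrays its difference was -0.22 ± 0.11 (adjusted p = 0.379, limma). Its dimmer probe sets differed there by -0.51 ± 0.13, -0.49 ± 0.14 and -0.18 ± 0.14. The first of these lay above the array medians, at 6.87 to 7.62. CCND1 lay below the array median in every array, at 5.13 to 5.57, and so was not shown to be above background. A dimmer probe set of CCND1, at 3.495 to 4.65, differed by 0.73, and with the mean of all probe sets of a gene CCND1 was called higher in place of CCND3. Of the kinase partners, CDK4 differed by -0.08 ± 0.08 and CDK6 by 0.26 ± 0.11 in the 4 arrays, and neither passed (adjusted p = 0.712 and 0.239, limma).

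RB1, the brake on E2F that the D cyclin kinases release, was the other member called lower. It was at 8.04, 7.93 and 7.55 in basal 1 to 3 and at 8.06, 7.65 and 7.23 in Dox 1 to 3. Dox 3 was lowest and Dox 1 highest, so the labelled groups overlapped (difference -0.19 ± 0.24, exact permutation p = 0.7, n = 3 each). In the 4 arrays the difference was -0.54 ± 0.13 (adjusted p = 0.0291, limma), with -0.39 in Dox 2 minus basal 1 and -0.69 in Dox 3 minus basal 2. Outside the narrow set the difference by label was 0.06. The other probe set of RB1 lay at 2.47 to 2.64, near the lowest signals on the arrays, and could show no change. E2F1, the factor that RB1 restrains, was at 0.15 ± 0.12 in the 4 arrays and did not pass (adjusted p = 0.624, limma).

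**Figure D2:**
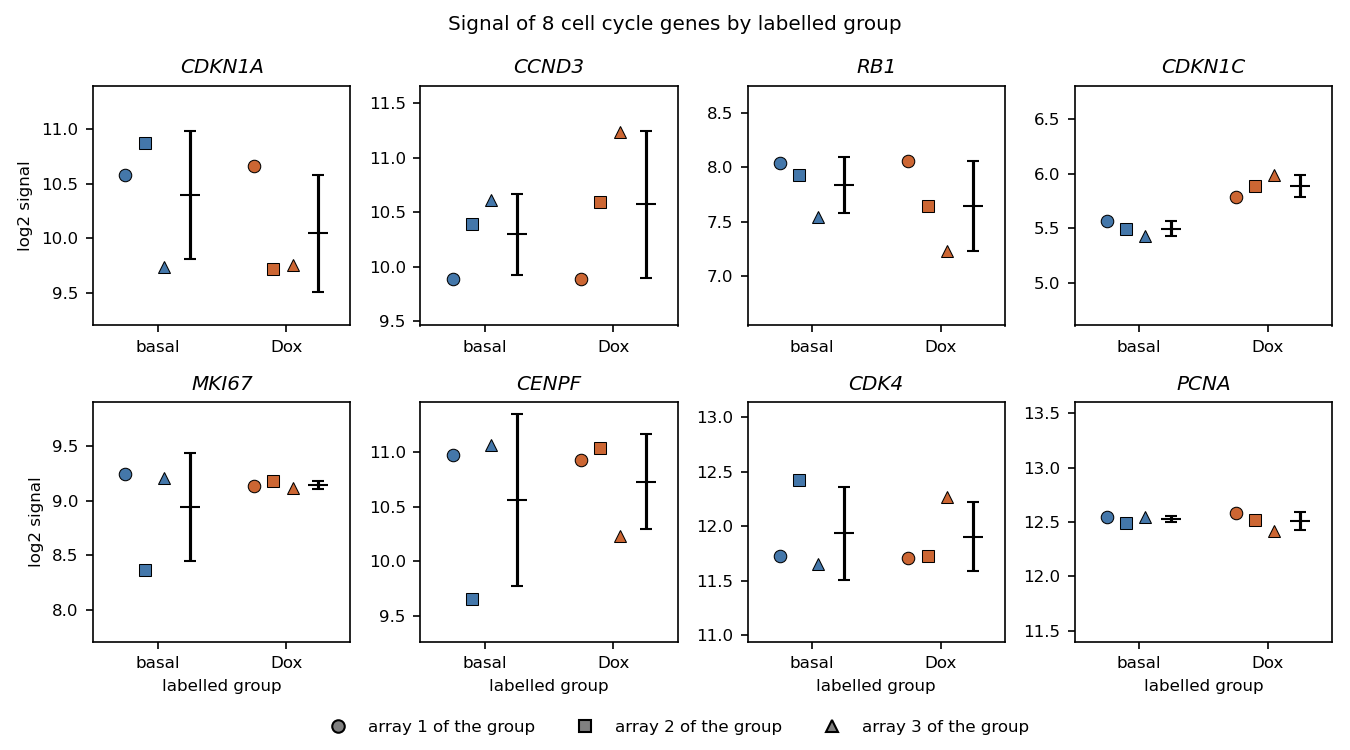
Log2 signal (y axis, of equal span in each panel) of 8 cell cycle genes by labelled group (x axis), with circles, squares and triangles for arrays 1, 2 and 3 of a group and the mean with its SD (n = 3) beside them. Only in CDKN1C do the 3 basal arrays, at 5.43 to 5.57, lie apart from the 3 Dox arrays, at 5.79 to 5.99.

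CDKN1C, which encodes the inhibitor p57 and is an imprinted gene of the adrenal cortex, was the 1 member whose labelled groups lay apart. Its signal was 5.57, 5.49 and 5.43 in basal 1 to 3 and 5.79, 5.89 and 5.99 in Dox 1 to 3. All 3 Dox arrays were above all 3 basal arrays, by 0.39 ± 0.10 (exact permutation p = 0.1, n = 3 each, the smallest possible; unadjusted p = 0.00583 and adjusted p = 1, limma). It also had the largest difference of any member within both nearly identical pairs, 0.22 in Dox 1 minus basal 1 and 0.47 in Dox 2 minus basal 3. The next members in those pairs were CCND1 at 0.18 and AURKB at 0.20. In the 4 arrays its difference was 0.41 ± 0.13 and did not pass (adjusted p = 0.0961, limma). These signals lay close to the array medians, and its 4 dimmer probe sets differed by label in the opposite direction, by -0.11 to -0.21.

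The remaining inhibitors gave no call. CDKN1B, which encodes p27, was at 11.21, 11.17 and 11.21 in basal and at 11.26, 11.27 and 11.09 in Dox, and all 6 values lay within 0.18. CDKN2A, which encodes p16 and ARF, was at 10.61, 11.31 and 10.58 in basal and at 10.51, 10.53 and 10.86 in Dox. It was highest in basal 2 and next in Dox 3, and its 4-array difference of -0.27 ± 0.11 did not pass (adjusted p = 0.203, limma). A second bright probe set of CDKN2A had the same order at the top, with 10.06 in basal 2 and 9.74 in Dox 3 against 9.12 to 9.25 in the 4 others.

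Genes of S phase and mitosis differed little between labels in either comparison. None of the 8 licensing genes, which encode loaders or subunits of the MCM helicase, and none of the 3 DNA synthesis genes was called. Their 4-array differences ran from -0.15 in CDC6 to 0.16 in RRM2. CDC6, a loader of the helicase, was at 9.49, 8.76 and 9.31 in basal and 9.36, 9.25 and 8.70 in Dox. RRM2, the small subunit of ribonucleotide reductase, was at 12.46, 11.71 and 12.52 in basal and 12.48, 12.54 and 11.95 in Dox. TYMS, which makes thymidylate, differed by -0.01 ± 0.07. Of the E and A cyclins and CDK2, CCNE2 had the largest difference by label (0.11 ± 0.21) and CCNE1 the largest in the 4 arrays (-0.24 ± 0.10, adjusted p = 0.235, limma). Cyclin A2 (CCNA2) differed by -0.10 ± 0.09 in the 4 arrays.

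The 5 mitotic entry genes lay between -0.13 and 0.10 in the 4 arrays. CCNB1, cyclin B1, was at 12.32, 12.47 and 12.30 in basal and 12.32, 12.36 and 12.17 in Dox. CDK1, its kinase, differed by 0.01 ± 0.07, and the Aurora kinase AURKA by 0.07 ± 0.09. Among the 8 spindle and kinetochore genes the differences ran from -0.15 in CENPA, the histone variant of centromeres, to 0.32 in CENPF, a kinetochore protein. KIF11, the motor that separates the spindle poles, was at 10.34, 9.84 and 10.36 in basal and 10.42, 10.43 and 10.21 in Dox, with a 4-array difference of 0.23 ± 0.11 (adjusted p = 0.300, limma). The differences of MKI67 and CENPF came from 1 array set: Dox 3 minus basal 2 was 0.75 and 0.58, but Dox 2 minus basal 1 was -0.06 and 0.06.

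**Figure D3:**
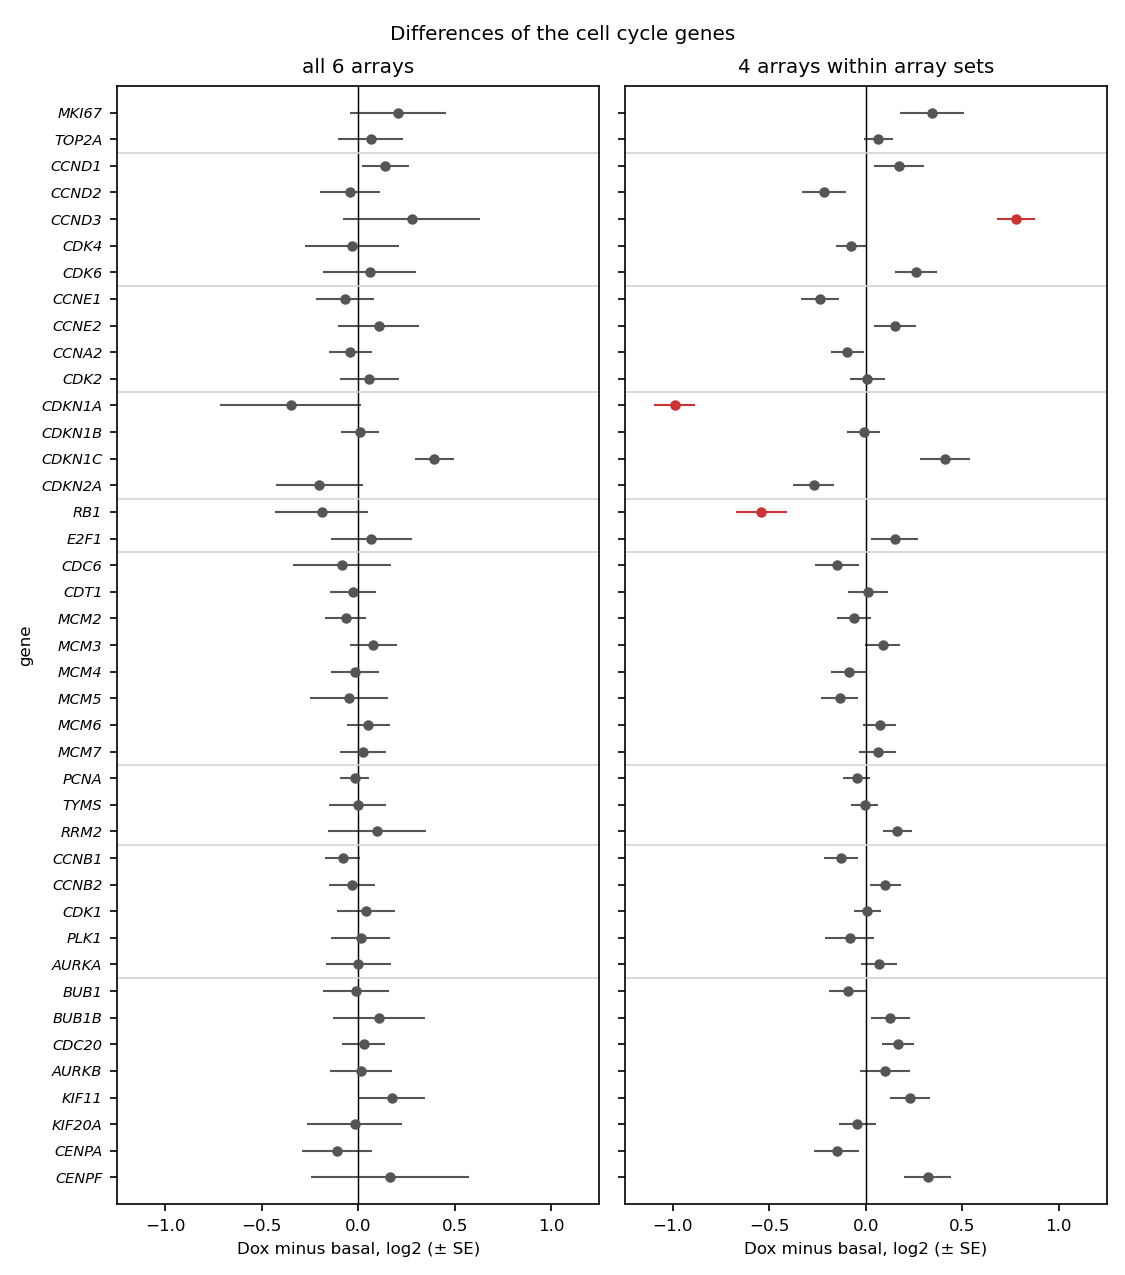
Dox minus basal difference in log2 signal (x axis, points with SE bars) of 41 cell cycle genes (y axis, by role) over all 6 arrays (left) and in the 4 arrays within array sets (right), with members past the adjusted threshold in red. No member is called on the left, and on the right CCND3 at 0.78, CDKN1A at -0.99 and RB1 at -0.54 are.

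**Figure D4:**
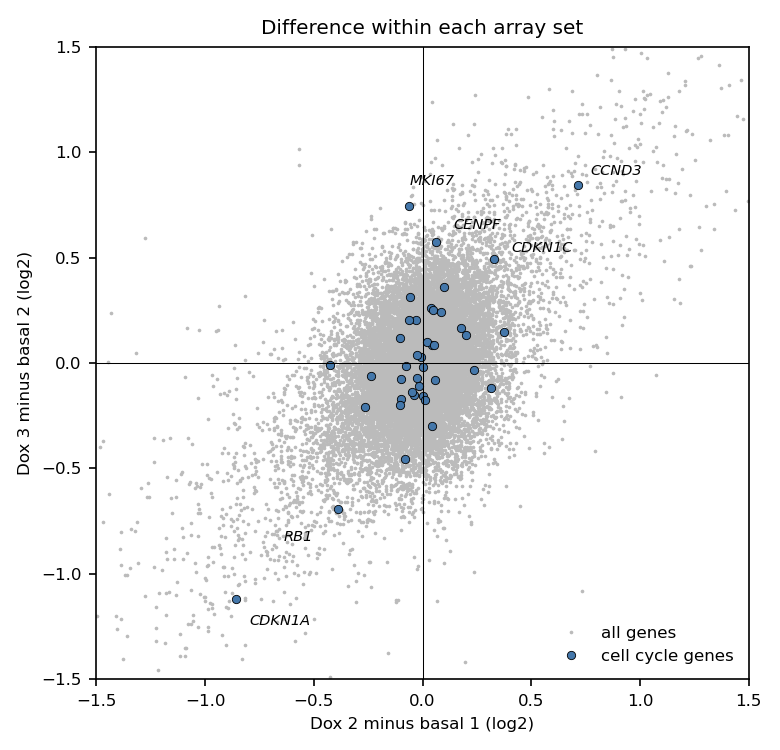
Dox 2 minus basal 1 (x axis) against Dox 3 minus basal 2 (y axis), in log2 signal, for all genes (grey) and 41 cell cycle genes (blue), with 164 genes outside the axes of -1.5 to 1.5. CDKN1A, RB1 and CCND3 lie toward the corners with 1 sign in both, and MKI67 and CENPF lie high on the y axis but near 0 on the x axis.

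Many members differed between the narrow set and the 4 other arrays. Each nearly identical pair joins a basal and a Dox array, so the size of this split was not set against that of the labels. This split is in no label, so it is described with no test. Of 41 members, 22 (53.7%) were lower in both basal 2 and Dox 3 than in each of the 4 others, where 26.6% of all genes were. A further 9 (22.0%) were higher in both, where 25.4% of all genes were. Of the 41 members, 39 lay above the median signal of every array, so this background is not matched for brightness. The part of brightness and of the narrower spread in these shares was not tested. In the narrow set the summed signal of the stromal, endothelial and blood markers was lowest (log2 9.43 to 9.45, against 9.51 to 9.94). So was that of 5 adrenal medulla markers (8.39 to 8.73, against 9.005 to 9.61). The summed signals of the reference genes (15.96 to 15.99, against 15.87 to 15.89) and adrenocortical markers (13.08 to 13.25, against 12.77 to 13.01) were highest. Sums follow the brightest genes: singly, 2 of 11 stromal, endothelial and blood markers were lowest in both arrays and 3 highest. Of 5 medulla markers 1 was lowest and 1 highest, of 7 reference genes 3 and 2, and of 8 adrenocortical markers 0 and 2. In the 4 arrays 2 adrenocortical, 1 stromal, endothelial or blood and 1 medulla marker (CHGB) were called lower. None of these lists had a call higher, and 6.99% of all genes were called. The part of these lists in the member differences was not tested. In bulk RNA, fewer cells in a phase and less of a transcript per cell cannot be told apart.

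All 3 DNA synthesis genes, 6 of 8 spindle and kinetochore genes and 4 of 8 licensing genes were lowest in both arrays. CENPF was at 9.66 in basal 2 and 10.23 in Dox 3, against 10.93 to 11.07 in the 4 others. KIF20A, a motor of cytokinesis, was at 10.08 and 10.07 against 10.66 to 10.75, and BUB1B, a checkpoint kinase, at 10.84 and 11.15 against 11.54 to 11.65. RRM2 was at 11.71 and 11.95 against 12.46 to 12.54, and CDK1 at 12.17 and 12.20 against 12.49 to 12.60. In MKI67 the margin was small on the Dox side, with 9.11 in Dox 3 and 9.14 in the lowest of the 4 others. Basal 2 was only just lower in PCNA (12.49 against 12.52 in the lowest of the 4 others) and CDKN1B (11.17 against 11.21).

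The genes that were higher in both arrays were CCND1, CDK4, CDKN2A, E2F1, CDT1, MCM2, MCM5, MCM7 and PLK1. Margins were small in CDT1 (9.76 in basal 2 against 9.71 in basal 3) and MCM2 (11.01 in Dox 3 against 10.98 in basal 1). In the dimmer probe sets of CCND1 and CDT1, basal 2 lay below Dox 2 (3.65 against 4.65 and 8.17 against 8.21). In the dimmest of CDKN2A it lay below basal 3 (4.03 against 4.13). CDK4, the G1 kinase, was at 12.43 in basal 2 and 12.27 in Dox 3, against 11.66 to 11.73 in the 4 others. CDK6 moved the other way in its brightest probe set (9.47 and 9.62 against 9.86 to 10.23), but another bright probe set of CDK6 was higher in the narrow set (8.61 and 8.58 against 7.55 to 8.03). The MCM helicase subunits split, since MCM2, MCM5 and MCM7 were higher and MCM3, MCM4 and MCM6 lower in both arrays. A dimmer probe set of MCM4 was higher there, at 6.17 and 6.22 against 5.71 to 5.90. E2F1 was at 8.62 and 8.87 against 8.23 to 8.36.

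Promoter windows were found in RefSeq for 33 of the 41 members (43 windows, some of 1 gene and overlapping). CCAAT boxes were in 69.8% of member windows and in 32% of all 35116 windows, E2F letters in 20.9% against 2.79%, and CHR letters in 25.6% against 14.3%. Among the 14 windows of mitotic entry, spindle and kinetochore genes, 13 held CCAAT and 8 held CHR. Of the 13 windows of licensing and DNA synthesis genes, 6 held E2F letters. SF-1 letters were in 0 of 43 member windows and in 1.14% of all windows. These are matches of letters and not measured sites. The windows that follow are of CENPF, which ranged most widely over the arrays, of CDK1 and PLK1, which moved opposite ways in the narrow set, and of MCM6, with the most E2F letters of the members. Capitals mark the motifs as defined for CDKN1A.
CENPF (chr1:214602945-214603194, + strand): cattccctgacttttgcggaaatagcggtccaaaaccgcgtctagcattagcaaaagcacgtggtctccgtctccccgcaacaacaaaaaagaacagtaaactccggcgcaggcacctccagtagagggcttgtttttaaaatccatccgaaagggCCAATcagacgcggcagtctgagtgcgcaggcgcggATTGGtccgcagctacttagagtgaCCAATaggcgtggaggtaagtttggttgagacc
CDK1 (chr10:60778228-60778477, + strand): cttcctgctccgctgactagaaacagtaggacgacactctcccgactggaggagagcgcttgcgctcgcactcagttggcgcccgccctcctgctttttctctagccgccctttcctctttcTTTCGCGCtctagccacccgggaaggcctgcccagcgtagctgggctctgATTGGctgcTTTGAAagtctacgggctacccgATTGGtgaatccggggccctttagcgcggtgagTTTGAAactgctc
PLK1 (chr16:23678639-23678888, + strand): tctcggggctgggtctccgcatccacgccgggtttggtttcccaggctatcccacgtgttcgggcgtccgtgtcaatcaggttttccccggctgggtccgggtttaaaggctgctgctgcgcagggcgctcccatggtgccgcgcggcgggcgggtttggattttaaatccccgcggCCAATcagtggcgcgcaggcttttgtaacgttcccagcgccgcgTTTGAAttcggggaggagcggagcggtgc
MCM6 (chr2:135876444-135876693, - strand): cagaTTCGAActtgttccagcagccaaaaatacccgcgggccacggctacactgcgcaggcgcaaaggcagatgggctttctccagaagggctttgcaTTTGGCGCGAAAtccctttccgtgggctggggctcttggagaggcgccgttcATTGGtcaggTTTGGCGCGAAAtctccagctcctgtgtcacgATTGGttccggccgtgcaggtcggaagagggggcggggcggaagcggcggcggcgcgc
CENPF held 3 CCAAT boxes and neither CHR nor E2F letters. This window of CDK1 held 1 E2F site, 2 CHR elements and 2 CCAAT boxes, and that of PLK1 held 1 CHR and 1 CCAAT. MCM6 held 4 E2F matches, in overlapping pairs on opposite strands, 1 CHR and 2 CCAAT boxes.

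Among other genes of the cycle, calls were few as well. Of 36 further measured G1/S and replication genes, 1 was called higher and 0 lower in the 4 arrays, and of 31 further G2/M genes 0 were higher and 1 lower, each share below the 6.99% of all genes. Over all 6 arrays 0 of either list were called, and 0 had an unadjusted p under 0.05 with limma. CDC25A, the phosphatase that activates CDK2, was the G1/S gene called, at 9.99, 10.18 and 10.33 in basal and 10.01, 10.46 and 10.63 in Dox (difference in the 4 arrays 0.46 ± 0.10, adjusted p = 0.0135, limma). HMMR, a spindle protein and hyaluronan receptor, was the G2/M gene called, at 10.80, 10.52 and 10.05 in basal and 10.87, 10.09 and 9.62 in Dox (-0.81 ± 0.10, adjusted p = 0.000451, limma). The labelled groups of both overlapped. In the narrow set 23 of the 36 (63.9%) and 21 of the 31 (67.7%) were lower than in each of the 4 other arrays, where 26.6% of all genes were. Higher in both arrays were 2 (5.56%) and 3 (9.68%), a smaller share than in the members (22.0%) and in all genes (25.4%). All 36 and all 31 lay above the median signal of every array, so here too the background is not matched for brightness.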

How the data were processed

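RNA of the cells was hybridised to 6 HG-U133 Plus 2.0 arrays. The deposited values, made by the authors, are on the log2 scale, 1 per probe set and array. GCRMA, a background correction based on probe sequence, is named without a version in the submitters' processing notes, and Affymetrix console software in the study's methods. Whether all arrays were normalized together is not given in the sources used here. The deposited values were used without further scaling or filter. Of 54613 probe sets, 41091 had 1 symbol, 1801 several and 11721 none. Symbols of the 151 listed genes matched current names by gene identifier. The methods state 3 biological replicates per condition, and the labels pair none of them. The number of arrays limits the precision.

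Groups came from the treatment labels. Models were fitted with limma 3.58.1 under R 4.3.3 (lmFit, eBayes with a mean-variance trend) over all 19775 genes. Their tests were two-sided, with Benjamini-Hochberg adjustment and a threshold of 0.05. Exact permutation tests over the 6 arrays used scipy 1.17.1. The members and lists, and the arrays and block of the 4-array comparison, were chosen with earlier results of these data known. The genes named with full values are MKI67, PCNA, members past the threshold, the member of each of 9 roles with the largest difference by label, and, in other lists, up to 3 called genes. Further members were described after their values were seen. The result of 1 further gene list is not reported here. Figures were drawn with matplotlib 3.10.9.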

Additional observations from a re-analysis of the deposited data

How the results depend on the processing

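Over all 6 arrays, 0 members were called under each of the 16 alternatives run, which included quantile normalization, centring, a filter on low signals, leaving out each array, and array set or label style as a block. Under each of them 0% of all genes were called as well. In the 4 arrays, CCND3 stayed higher and CDKN1A and RB1 lower under quantile normalization, centring, the filter and eBayes without a trend. Of all genes tested, 7.54%, 8.71%, 14.9% and 5.66% were called under these, in that order. With the mean of all probe sets there was 1 call higher (CCND1) and 1 lower (CDKN1A), where 6.51% of all genes were called. Without the block, and with label style as the block, 0 were higher and 0 lower (3 and 2 members at an unadjusted p under 0.05, limma), as for all genes. At the methods' thresholds of 2-fold and an unadjusted p under 0.05, 0 were higher and 0 lower, CDKN1A being at 1.99-fold. At these thresholds 1.53% of all genes passed. Leaving out basal 1 and Dox 2 in place of basal 3 and Dox 1 gave 0 calls, among members and among all genes. Leaving out 1 of the 4 arrays leaves no residual degree of freedom, so each array set alone was given as values. Over all 6 arrays the uncalled differences of CCND3 and RB1 changed sign without Dox 3, to -0.06 and 0.02, as did those of PCNA and CDC6 (0.02 and 0.12). Without basal 2, MKI67, CCNE2 and RRM2 turned to -0.08, -0.09 and -0.16. CDC6 turned to 0.07 without basal 1, and RRM2 to -0.0095 without Dox 2. With the mean of probe sets CDC6 was at 0.01. Under these settings no called difference of the 11 named members changed sign. Outside the narrow set, by label, CDKN1A, CCND3 and RB1 had the opposite sign (0.04, -0.01 and 0.06). With the mean of its probe sets CDKN1C was at -0.04 in both comparisons. No paired analysis was possible because the labels give no numbers shared between the groups.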
